A study of Mus musculus with 6 samples.

Results

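Retinoic acid is made from vitamin A inside cells, and 9 mouse genes of its synthesis, breakdown, binding and response were followed here: Aldh1a1, Aldh1a2, Aldh1a3, Cyp26b1, Rarb, Crabp1, Crabp2, Dhrs3 and Stra6. They were chosen by name, as listed pathway genes, with earlier results of these data known, from a table of 57180 gene identifiers. All 9 were found in it, and 8 had enough reads to be tested, all but Stra6. Polyadenylated RNA was sequenced from cultured mouse cardiac, lung and tail tip fibroblasts. For every origin there was a culture given an adenovirus with Cre recombinase (Ad-Cre, called GATA4 KO by the submitters) and one given an adenovirus with green fluorescent protein (Ad-GFP, the control), each collected 48 h later. The medium of every culture was DMEM plus 10% FBS (fetal bovine serum), and the labels name no added retinoid. Each of the 6 combinations is 1 library, so both libraries of an origin stand in for its replicates, and whether they came from separate animals or cultures is not given in the labels. P-values for origin therefore measure only the spread between these libraries. Every library, Ad-Cre included, carries the genotype WT in the labels, which give no floxed allele, strain or age and do not say which part of Gata4 Cre would remove.

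Cells take up retinol, in part through the receptor STRA6, and oxidise it to retinaldehyde. The enzyme DHRS3 turns retinaldehyde back to retinol, while the ALDH1A enzymes oxidise it irreversibly to retinoic acid. Inside the cell retinoic acid is bound by CRABP1 and CRABP2, enters the nucleus to activate the RAR and RXR receptors on response elements in DNA, and is broken down by CYP26 enzymes. In the embryonic heart the outer layer, the epicardium, is a known site of Aldh1a2 expression, and retinoic acid takes part in forming the lung bud and in patterning the body axis.

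The response gene Rarb encodes retinoic acid receptor beta, and the element through which retinoic acid acts on its own promoter is the textbook case of such a site. The promoter windows used here reach from 250 bases before to 50 after a gene's start, from RefSeq (GRCm38.p6), a build other than the mm39 build named for the counts. They were searched on both strands for direct repeats of the 6-base unit AGGTCA or its variants (GGGTCA as the first variant, AGTTCA as the second and GGTTCA as the third), spaced by 5, 2 or 1 bases. Windows were found for 7 of the 9 genes (13 windows), with none for Aldh1a3 and Crabp2. A repeat was found in 1 of the 13 windows, that of Rarb, with the units 5 bases apart (the DR5 spacing), starting 53 bases before the start. Among all 32851 RefSeq windows, 0.588% held a repeat at any of these spacings, and 0.0974% held the DR5 spacing. The Rarb window, on the minus strand at chr14:16575427-16575726, is shown for this repeat, which stands in capitals. The Aldh1a2 window, on the plus strand at chr9:71215539-71215838, is shown beside it because this gene had the widest range between origins, and it has no capitals because it held no repeat.
Rarb: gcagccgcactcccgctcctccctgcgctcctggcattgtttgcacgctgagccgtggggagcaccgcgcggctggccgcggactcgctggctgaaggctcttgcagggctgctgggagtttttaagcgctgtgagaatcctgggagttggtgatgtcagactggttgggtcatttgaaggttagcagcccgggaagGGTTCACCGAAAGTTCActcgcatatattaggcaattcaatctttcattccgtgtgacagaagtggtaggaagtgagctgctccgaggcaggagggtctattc
Aldh1a2: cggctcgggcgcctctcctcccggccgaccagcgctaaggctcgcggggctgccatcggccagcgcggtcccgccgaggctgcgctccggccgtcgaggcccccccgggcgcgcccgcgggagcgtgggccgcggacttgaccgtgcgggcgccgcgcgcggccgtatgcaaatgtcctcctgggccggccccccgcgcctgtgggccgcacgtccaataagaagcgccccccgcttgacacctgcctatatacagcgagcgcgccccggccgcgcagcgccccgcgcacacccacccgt
A match describes these letters only, and the absence of a match says nothing about binding outside the window.

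Libraries held 26170316 to 33779069 counts. A gene with 0 reads may have up to 3, which is 0.0888 to 0.115 counts per megaread of the unscaled library total. Levels are given as CPM, counts per megaread of the library total after scaling by TMM factors. Fibroblast markers had reads in all 6 libraries (8 of 8 genes, summed level 7732 to 23097 CPM). Heart transcription factor genes (3 genes, Gata4 among them) summed to 568 and 834 CPM in the cardiac Ad-Cre and Ad-GFP libraries, against at most 25.7 CPM elsewhere. Lung mesenchyme genes (3 genes) were less distinct, with sums of 29.9 and 30.1 CPM in lung (Ad-Cre and Ad-GFP) and 14.8 and 15.3 CPM in tail tip. In cardiac they summed to 7.27 and 5.32 CPM. Of these genes only Tbx4 was not highest in lung, at 2.22 and 2.61 CPM there and 12.9 and 12.7 CPM in tail tip. Posterior Hox genes (5 genes) summed to 77.4 and 81.7 CPM in tail tip, against at most 4.06 CPM elsewhere. That highest value was the cardiac Ad-Cre library, with Hoxc13 at 2.65 CPM. Of the 5 genes, Hoxd13 went the other way, with 38 and 5 reads in cardiac and 1 and 1 in tail tip (Ad-Cre and Ad-GFP). Hoxd10 had 1 and 0 reads in tail tip. Gata4 itself was at 149 CPM in the cardiac Ad-Cre library and 147 CPM in the cardiac Ad-GFP library, so its RNA was not lower there (ratio 1.02, 0.978 to 1.06), and directions between viruses rest on the labels. Other cell types were also read. Macrophage and leukocyte markers (7 genes) summed to 1090 and 1341 CPM in tail tip, 120 and 163 CPM in cardiac and 14.7 and 18.3 CPM in lung fibroblasts, Ad-Cre and Ad-GFP in each. All 8 mesothelial and epicardial markers had reads in the cardiac Ad-Cre and Ad-GFP libraries, against 5 and 3 in lung and 4 and 5 in tail tip fibroblasts. Their sum was 219 and 166 CPM in cardiac, 208 and 169 CPM in lung, nearly all of it Msln (193 and 153 CPM, against 27.6 and 6.42 CPM in cardiac), and 27 and 24.7 CPM in tail tip fibroblasts. Lrrn4 and Tcf21 were at 0 in every lung and tail tip library. In bulk RNA fewer cells of a type and less RNA per cell cannot be told apart, and what these cells contribute to the values below was not tested.

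Origin separated the retinoic acid genes by large factors, as the plot of levels by library shows. Cardiac fibroblasts carried all 3 Aldh1a genes, tail tip fibroblasts carried Aldh1a3 with Cyp26b1, Dhrs3 and Crabp1, and lung fibroblasts had little of any of them apart from Crabp1.

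**Figure D1:**
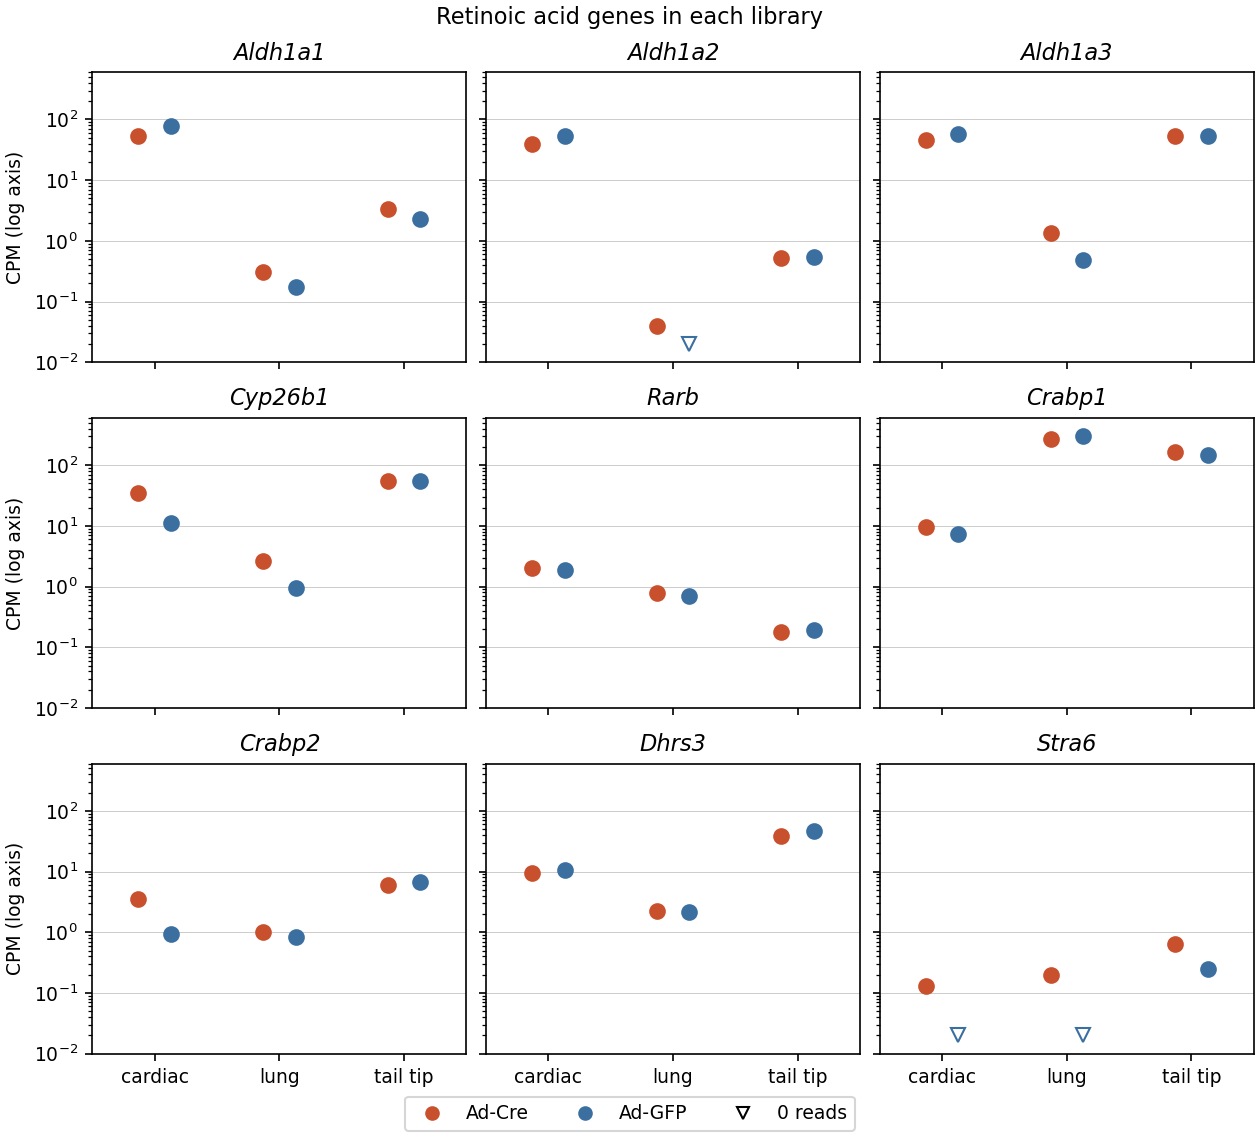
Level of each of the 9 genes (CPM, log axis) in the cardiac, lung and tail tip libraries, with 1 point per library, Ad-Cre left of Ad-GFP, and open triangles at the foot for libraries with 0 reads. Aldh1a2 stands at 39.1 and 53.5 CPM in cardiac fibroblasts and at most 0.535 CPM elsewhere, and Crabp1 stands at 271 and 304 CPM in lung and at 9.69 and 7.22 CPM in cardiac fibroblasts.

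The 3 Aldh1a genes encode retinaldehyde dehydrogenases, which make retinoic acid. Aldh1a2 (ENSMUSG00000013584) had 1195 and 1741 reads in the cardiac Ad-Cre and Ad-GFP libraries, 1 and 0 reads in lung and 17 and 17 reads in tail tip. Its cardiac libraries lay far above all the others, at 39.1 and 53.5 CPM. Pooled over the viruses, cardiac fibroblasts had 2550 times the lung level (exact 95% interval for counting error alone 457 to 100758, with 1 lung read) and 88.8 times the tail tip level (63.4 to 129). The gene rose in cardiac over lung (edgeR adjusted p = 1.47e-05) and in cardiac over tail tip fibroblasts (log2 fold change 6.44, SE 0.32, adjusted p = 2.81e-05). In lung over tail tip it fell (adjusted p = 0.0019), a value that rests on 1 lung read and 34 tail tip reads. The cardiac-to-lung ratio likewise rests on that 1 lung read, and the size of either lung difference is poorly known.

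Aldh1a1 (ENSMUSG00000053279) was at 53.5 and 79.1 CPM in the cardiac Ad-Cre and Ad-GFP libraries, 0.312 and 0.172 CPM in lung and 3.38 and 2.3 CPM in tail tip. The 3 origins did not overlap. It rose in cardiac over lung (log2 fold change 8.10, SE 0.43, adjusted p = 3.04e-05) and in cardiac over tail tip fibroblasts (4.54, SE 0.32, adjusted p = 9.34e-05). It fell in lung over tail tip (log2 fold change -3.56, SE 0.45, adjusted p = 0.000631), where the lung libraries had 8 and 5 reads. Cardiac over lung was 7.47 without the cardiac Ad-GFP library, and cardiac over tail tip was 5.14 without the cardiac Ad-Cre library and 3.92 without the cardiac Ad-GFP library, all still called.

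Aldh1a3 (ENSMUSG00000015134) was high in tail tip as well as in cardiac fibroblasts. It stood at 46.4 and 57.9 CPM in cardiac Ad-Cre and Ad-GFP, 1.33 and 0.481 CPM in lung and 54 and 52.8 CPM in tail tip fibroblasts. The cardiac and tail tip libraries overlapped, and their difference did not pass (log2 fold change -0.03, SE 0.28, adjusted p = 0.954). Both stood far above lung, by 5.89 in cardiac over lung (SE 0.39, adjusted p = 6.68e-05) and with -5.91 in lung over tail tip (SE 0.39, adjusted p = 3.03e-05). These sizes varied with the lung library used. Without the lung Ad-Cre or Ad-GFP library the values were 6.79 and 5.18 in cardiac over lung and -6.87 and -5.25 in lung over tail tip, all still called.

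Compared per length, the make-up of the Aldh1a RNA differed by origin. In tail tip fibroblasts Aldh1a3 was 92.8% and 94.2% of the summed level of the 3 genes in CPM per kilobase of merged exons (Ad-Cre and Ad-GFP). In cardiac fibroblasts Aldh1a2 was 45.3% in both libraries, Aldh1a1 was 28.4% and 30.7%, and Aldh1a3 was 26.3% and 24%. The order of the first 2 cardiac genes depends on the length used, since with the longest transcript Aldh1a1 was 42.4% and 45.3% and Aldh1a2 was 32.3% and 31.9%. The summed level was 38.2 and 52.2 CPM per kilobase in cardiac, 0.367 and 0.139 in lung and 12.6 and 12.1 in tail tip fibroblasts. Lung libraries were lowest, and Aldh1a3 made up 78.1% and 75% of their small sum.

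**Figure D2:**
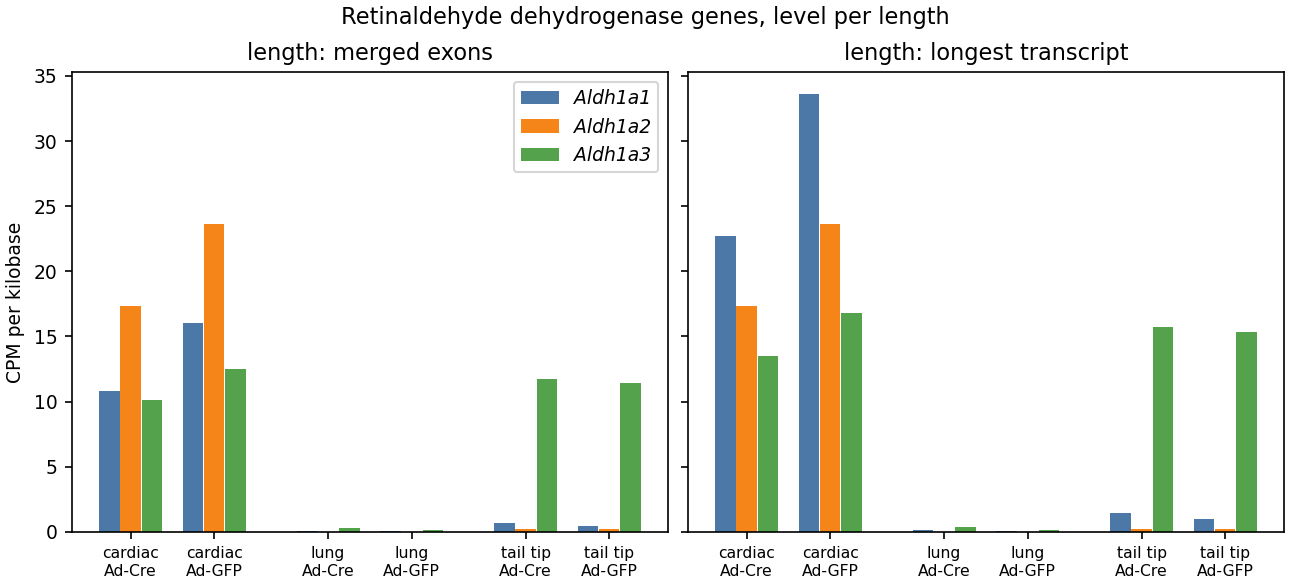
Level per length (CPM per kilobase) of Aldh1a1, Aldh1a2 and Aldh1a3 in each library, with merged exons (left panel) or the longest transcript (right panel) as the length; each bar is 1 library. Cardiac libraries carry all 3 genes, tail tip libraries almost only Aldh1a3, and the order of Aldh1a1 and Aldh1a2 in cardiac libraries changes between the panels.

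Breakdown and reversal were measured with Cyp26b1 and Dhrs3. Cyp26b1 (ENSMUSG00000063415), a cytochrome P450 that clears retinoic acid, was at 34.2 and 11.2 CPM in the cardiac Ad-Cre and Ad-GFP libraries, 2.65 and 0.961 CPM in lung and 54.7 and 54.3 CPM in tail tip fibroblasts. Tail tip was highest and lung lowest, with no overlap. It rose in cardiac over lung (log2 fold change 3.60, SE 0.43, adjusted p = 0.00089) and fell in lung over tail tip (-5.11, SE 0.45, adjusted p = 0.000112). In cardiac over tail tip it fell with -1.50 (SE 0.37, adjusted p = 0.0201). The ratio there was 0.626 between the Ad-Cre libraries and 0.206 between the Ad-GFP libraries, and the call was lost without the virus term (adjusted p = 0.0988), without either lung library (0.0854 and 0.0831), without the lung pair (0.0701) and without the tail tip Ad-GFP library (-0.75, adjusted p = 0.204). It was -0.91 without the cardiac Ad-GFP library and -2.28 without the tail tip Ad-Cre library. Cardiac over lung was 2.89 without the cardiac Ad-Cre library, and lung over tail tip was -5.87 and -4.34 without the tail tip Ad-Cre or Ad-GFP library, all still called.

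Dhrs3 (ENSMUSG00000066026), the retinaldehyde reductase, is itself induced by retinoic acid in many cells. It had 9.5 and 10.6 CPM in cardiac Ad-Cre and Ad-GFP, 2.22 and 2.16 CPM in lung and 38 and 46 CPM in tail tip fibroblasts. The order was tail tip, cardiac, lung, with the libraries of an origin close together. All 3 differences passed: 2.19 in cardiac over lung (SE 0.21, adjusted p = 0.000314), -2.06 in cardiac over tail tip (SE 0.19, adjusted p = 0.000271) and -4.25 in lung over tail tip (SE 0.22, adjusted p = 1.15e-05).

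The carrier Crabp1 was lowest in cardiac fibroblasts. Crabp1 (ENSMUSG00000032291), a cytosolic protein that holds retinoic acid, had 9.69 and 7.22 CPM in cardiac Ad-Cre and Ad-GFP, 271 and 304 CPM in lung and 168 and 145 CPM in tail tip fibroblasts. Cardiac fibroblasts, with the most Aldh1a RNA, had the least Crabp1, which fell by 5.10 on the log2 scale in cardiac over lung (SE 0.21, adjusted p = 1.37e-05) and by 4.21 in cardiac over tail tip (SE 0.20, adjusted p = 2.73e-05). In lung over tail tip it rose by 0.89 (SE 0.18, adjusted p = 0.00488), a call lost without the tail tip Ad-GFP library (0.82, adjusted p = 0.0569).

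Crabp2 (ENSMUSG00000004885), the carrier that delivers retinoic acid to the receptor, was low throughout, at 3.57 and 0.922 CPM in cardiac Ad-Cre and Ad-GFP, 1.01 and 0.824 CPM in lung and 5.95 and 6.67 CPM in tail tip fibroblasts. Tail tip was highest, and cardiac and lung libraries overlapped. Only lung over tail tip passed (log2 fold change -2.83, SE 0.58, adjusted p = 0.00564). That call was lost without the tail tip Ad-GFP library (-2.09, adjusted p = 0.05). Cardiac over tail tip had -1.69 (SE 0.56, adjusted p = 0.0534, and 0.0241 with DESeq2), and cardiac over lung had 1.14 (SE 0.58, adjusted p = 0.163). The cardiac pair differed within itself, and without the cardiac Ad-GFP library cardiac over lung was 1.92, against 0.01 without the cardiac Ad-Cre library. Cardiac over tail tip was -2.76 without the cardiac Ad-Cre library and -0.86 without the cardiac Ad-GFP library. It was -2.42 without the tail tip Ad-Cre library and -1.10 without the tail tip Ad-GFP library. Such a fit leaves a lone library in an origin and cannot measure the spread there, so only the sizes are given. Per kilobase of merged exons Crabp1 exceeded Crabp2 by 4.48 and 12.9 times in cardiac Ad-Cre and Ad-GFP, 440 and 608 times in lung and 46.5 and 35.8 times in tail tip fibroblasts.

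Rarb (ENSMUSG00000017491), whose window with the repeat is printed above, had 61 and 62 reads in cardiac Ad-Cre and Ad-GFP, 20 and 20 in lung and 6 and 6 in tail tip fibroblasts, which is 2 and 1.91 CPM in cardiac, 0.78 and 0.687 CPM in lung and 0.181 and 0.189 CPM in tail tip. The order was cardiac, lung, tail tip, so Rarb was lowest where Cyp26b1, Dhrs3 and Crabp2 were highest. It rose in cardiac over tail tip (log2 fold change 3.37, SE 0.63, adjusted p = 0.00644). That call was lost without the tail tip Ad-Cre library (adjusted p = 0.0749) or the tail tip Ad-GFP library (0.063). Lung over tail tip passed at 1.96 (SE 0.63, adjusted p = 0.0351), but not with DESeq2 (0.0733) or when any one of its 4 libraries was left out (0.148 to 0.309). Cardiac over lung did not pass (1.41, SE 0.56, adjusted p = 0.0854), although it did without the virus term (0.0405).

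Stra6 (ENSMUSG00000032327), a membrane receptor for retinol bound to its plasma carrier, had 4 and 0 reads in cardiac Ad-Cre and Ad-GFP, 5 and 0 in lung and 21 and 8 in tail tip fibroblasts. It did not pass the low-count filter, and the Ad-GFP libraries at 0 may hold up to 3 reads. DESeq2, run without that filter, gave adjusted p = 0.915 in cardiac over lung, 0.18 in cardiac over tail tip and 0.212 in lung over tail tip. With either cardiac library left out Stra6 passed the filter and was called in lung over tail tip with edgeR.

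Counted together, 6 of the 8 tested genes were called in cardiac over lung (5 higher and 1 lower), where 38.4% of all 18143 tested genes were called (20.8% higher and 17.6% lower). In cardiac over tail tip 6 were called (3 higher and 3 lower) against a background of 33.5% (15.5% and 18.0%). All 8 were called in lung over tail tip (2 higher and 6 lower) against 50.6% (22.3% and 28.2%). The median log2 fold change of the 8 was 2.90, -0.77 and -3.91 in these comparisons, against -0.01, -0.06 and -0.06 over all tested genes. The 2 libraries of each origin did not overlap for 7 of the 8 genes in cardiac over lung (all but Crabp2), 7 in cardiac over tail tip (all but Aldh1a3) and 8 in lung over tail tip, against 70.3%, 70.6% and 84.7% of all tested genes. These comparisons share libraries, and the genes were chosen by name with earlier results of these data known. These values therefore describe the list only and do not test it against all genes.

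**Figure D3:**
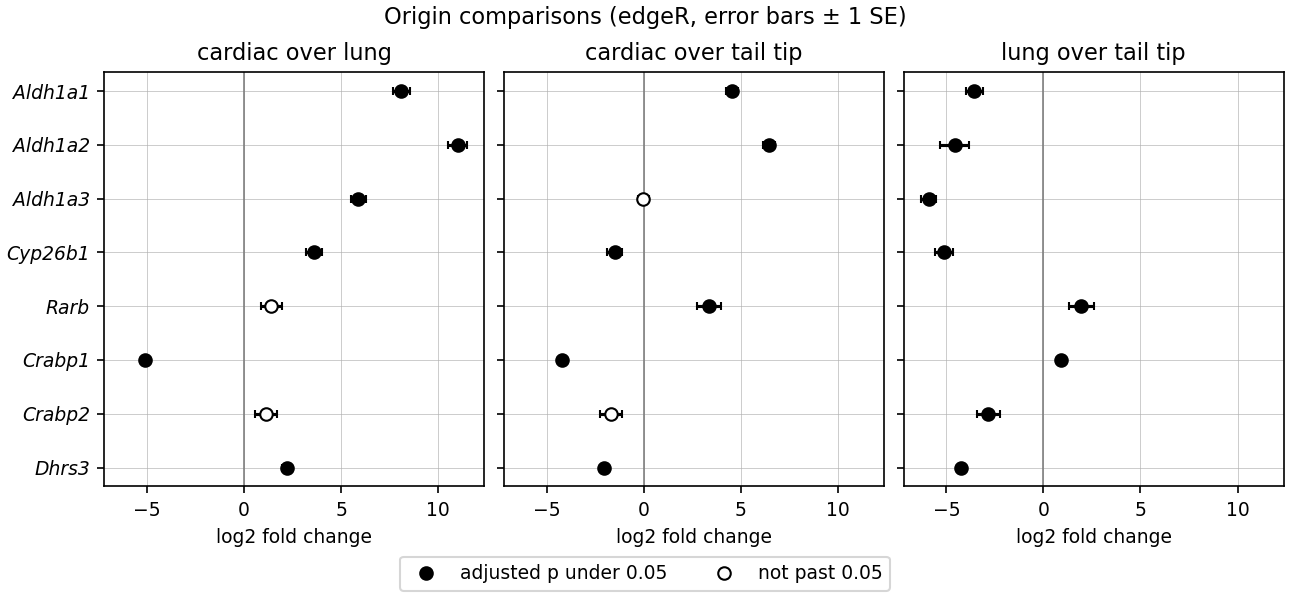
Log2 fold change of the 8 tested genes between origins, with error bars of 1 SE and filled points for an edgeR adjusted p under 0.05. Aldh1a1 and Aldh1a2 lie right of 0 in both cardiac comparisons and Crabp1 lies left of it, while 6 of the 8 genes lie left of 0 in lung over tail tip.

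The rest of the pathway, 58 genes in 6 lists of which 42 could be tested, moved in both directions. These lists too were chosen with earlier results of these data known. In cardiac over lung 9 were higher and 10 lower, in cardiac over tail tip 5 and 10, and in lung over tail tip 7 and 14. Over all tested genes the shares called were 38.4% (20.8% higher, 17.6% lower), 33.5% (15.5%, 18.0%) and 50.6% (22.3%, 28.2%) in these comparisons, near those of the 42 genes together. Among the carriers (9 genes, 4 tested) 2 were higher and 0 lower in cardiac over lung, 1 and 1 in cardiac over tail tip, and 0 and 2 in lung over tail tip, too few genes to set against those shares. Stra6l, a relative of Stra6, had 67 and 31 reads in cardiac, 0 and 0 in lung and 141 and 145 in tail tip fibroblasts. With a floor of 3 reads over the lung pair it was at least 28.4-fold higher in cardiac over lung (adjusted p = 0.00259) and at least 80.5-fold lower in lung over tail tip (adjusted p = 0.000556).

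Among 16 retinol and retinal oxidoreductases (12 tested) 1 was higher and 1 lower in cardiac over lung, 0 and 1 in cardiac over tail tip, and 1 and 4 in lung over tail tip, so fewer than the 38.4%, 33.5% and 50.6% of all tested genes. Rdh10, the main retinol dehydrogenase of the embryo, was at 19.6 and 9.96 CPM in cardiac, 18.7 and 25.6 CPM in lung and 15.8 and 15.1 CPM in tail tip fibroblasts, and did not pass in any of them. Dhrs9 fell in cardiac over lung (-2.11, SE 0.30, adjusted p = 0.00198) and in cardiac over tail tip (-1.93, SE 0.30, adjusted p = 0.00304), while Rdh11 rose by 1.09 in cardiac over lung (adjusted p = 0.00233). Of the other breakdown enzymes, Cyp26a1 had at most 3 reads in a library and Cyp26c1 at most 4, so neither was tested.

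Among 7 genes of the receptor list (6 tested, including the carrier Fabp5 and the receptor Ppard, which can also bind retinoic acid) 4 were lower and 0 higher in both cardiac comparisons, where 17.6% (cardiac over lung) and 18.0% (cardiac over tail tip) of all tested genes were lower. Rarg, retinoic acid receptor gamma, was at 34 and 40.9 CPM in cardiac, 88 and 77.7 CPM in lung and 81.9 and 83.9 CPM in tail tip fibroblasts. It fell with -1.15 in cardiac over lung (SE 0.17, adjusted p = 0.00203) and with -1.15 in cardiac over tail tip (SE 0.17, adjusted p = 0.00217). Rxrb, a partner of the receptors, had -1.13 (adjusted p = 0.00278) and -0.82 (adjusted p = 0.0112) in these comparisons. In lung over tail tip 1 of the 6 was higher and 2 lower, where 50.6% of all tested genes were called. Rara and Rxra fell there, with -0.69 (adjusted p = 0.0276) and -0.85 (adjusted p = 0.00214), and Fabp5 rose by 0.62 (adjusted p = 0.0131). Of the 8 coregulators, 1 was higher and 2 lower in cardiac over lung, 0 and 1 in cardiac over tail tip, and 1 and 3 in lung over tail tip, which is at or below the 38.4%, 33.5% and 50.6% of all tested genes, with Ncoa1 the furthest apart in lung over tail tip (-1.52, adjusted p = 0.000548).

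Further genes known to respond to retinoic acid (16 genes, 12 tested) went both ways. In cardiac over lung 5 were higher and 3 lower, in cardiac over tail tip 4 and 3, and in lung over tail tip 4 and 3, where 38.4%, 33.5% and 50.6% of all tested genes were called. Cd38 rose by 4.61 in cardiac over lung (SE 0.43, adjusted p = 0.000285) and by 2.72 in cardiac over tail tip (SE 0.37, adjusted p = 0.0017). The Hox genes of the list also mark position along the body. Hoxb5 fell with -5.56 (SE 0.70, adjusted p = 0.00109) and -4.54 (SE 0.68, adjusted p = 0.00261) in the same comparisons. Hoxa4 had 0 reads in both cardiac libraries and 156 and 139 in lung, so it was at least 113-fold lower in cardiac over lung (adjusted p = 0.000501).

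**Figure D4:**
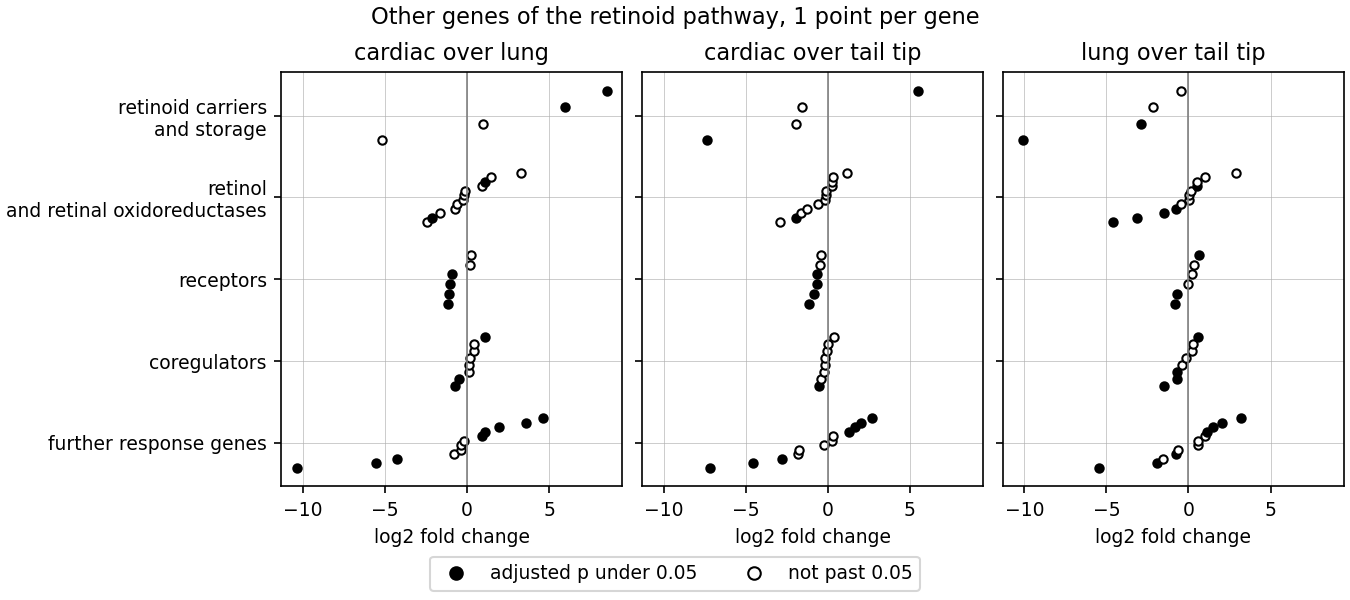
Log2 fold change of the tested genes of 5 pathway lists between origins, 1 point per gene, filled for an edgeR adjusted p under 0.05. Receptors and coregulators lie between -1.52 (Ncoa1 in lung over tail tip) and 1.07 (Ncoa1 in cardiac over lung), while carriers and response genes reach further. Stra6l in lung and both Hoxa4 and Bco2 in cardiac fibroblasts have 0 reads, so their fitted values there depend on the prior count. For Bco2 these are -5.19 in cardiac over lung and -7.35 in cardiac over tail tip.

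For each tested gene the most similar patterns were taken from 10508 other tested genes averaging 5 CPM or more, by the root mean square difference of gene-centred log2 CPM over the 6 libraries. The nearest were Eln for Aldh1a1 (0.330), Myo18b for Aldh1a2 (0.454), Stab1 for Aldh1a3 (0.267), Kdr for Cyp26b1 (0.274), Itga6 for Rarb (0.114), Tspan11 for Crabp1 (0.298), Lynx1 for Crabp2 (0.236) and Lrrc32 for Dhrs3 (0.152). Eln was also the third nearest to Aldh1a2 (0.564). The 6 points of each pattern are 3 pairs that share an origin.

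The virus comparison concerns the effect of Ad-Cre on these genes. Fitted as a change common to the 3 origins, 0 of the 8 genes were called with edgeR, where 0% of all 18143 genes were called. With an unadjusted p under 0.05 edgeR listed 367 genes, 1 of them among the 8, and DESeq2 called 4 genes and 0 of the 9. Cyp26b1 was the 1 gene of the 8 with an unadjusted p under 0.05, higher with Ad-Cre in the cardiac and lung pairs and at a ratio of 1.01 in the tail tip pair (log2 fold change 0.94, SE 0.32, unadjusted p = 0.0225, adjusted p = 0.9996). By sign alone, counting that ratio as higher, it was the 1 of the 8 with the same direction in all 3 origins, as were 22.2% of all tested genes. Cyp26b1 passed without the low-count filter (adjusted p = 0.000711) and without the tail tip pair (1.52, adjusted p = 0.0393). Without either the tail tip Ad-Cre or the tail tip Ad-GFP library it was 1.55, with a lone library left in that origin. Without the cardiac pair it was 0.37 (adjusted p = 1.0000), and without the cardiac Ad-Cre or Ad-GFP library 0.37 and 0.38. The other 7 log2 fold changes lay between -0.30 (Aldh1a2) and 0.66 (Crabp2).

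Within an origin there is 1 library per virus, so no test was made, and intervals are exact 95% intervals for counting error alone. In cardiac fibroblasts Cyp26b1 had 1045 reads with Ad-Cre and 364 with Ad-GFP, a ratio of 3.06 (2.71 to 3.45), and Crabp2 had 109 and 30, a ratio of 3.87 (2.56 to 6.01). These 2 of the 8 tested genes differed at least 2-fold, both higher, against 20.3% of all tested genes in this pair (11.3% higher and 9.07% lower). The 3 synthesis genes had less RNA with Ad-Cre, with ratios of 0.676 for Aldh1a1 (0.635 to 0.719), 0.731 for Aldh1a2 (0.679 to 0.787) and 0.802 for Aldh1a3 (0.748 to 0.859). Crabp1 had a ratio of 1.34 (1.13 to 1.6), and the intervals of Rarb (1.05, 0.724 to 1.52) and Dhrs3 (0.895, 0.763 to 1.05) covered 1. In the same pair the response genes Cd38 and Zfp703 had ratios of 2.24 (1.97 to 2.56) and 0.487 (0.448 to 0.529). Adh7, an alcohol dehydrogenase, had 0.0525 (0.0207 to 0.111), and the oxidoreductase Dhrs9 had 2.03 (1.64 to 2.52). Of the 12 tested further response genes 2 were at least 2-fold higher and 3 lower. Of the 12 tested oxidoreductases it was 2 and 2, where 11.3% and 9.07% of all tested genes were.

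Other markers differed in the cardiac pair as well. Fibroblast markers (8 of 8 genes) summed to 14638 CPM with Ad-Cre and 23097 CPM with Ad-GFP, with ratios of 0.7 for Col1a1, 0.654 for Col1a2 and 0.533 for Vim, so they were lower alongside the Aldh1a genes. Summed epithelial markers (6 of 6 genes with reads in both libraries) were at 128 CPM with Ad-Cre and 9.68 CPM with Ad-GFP. Heat shock genes (4 of 4) were at 154 and 1309 CPM, mesothelial and epicardial markers (8 of 8) at 219 and 166 CPM, and macrophage markers (7 of 7) at 120 and 163 CPM. Among the mesothelial and epicardial genes Upk1b was at 41.5 and 5.66 CPM and Tcf21 at 11.1 and 35.3 CPM. Their part in the ratios above was not tested.

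In lung fibroblasts Cyp26b1 had 68 reads with Ad-Cre and 28 with Ad-GFP, a ratio of 2.76 (1.75 to 4.45). Aldh1a3 had 34 and 14 reads, also a ratio of 2.76 (1.44 to 5.56). These 2 of the 8 differed at least 2-fold, both higher, against 7.69% of all tested genes (4.87% higher and 2.82% lower). Crabp1 was slightly lower, at 0.89 (0.862 to 0.918), and the other ratios with reads in both libraries had intervals that covered 1. Rara, which encodes retinoic acid receptor alpha, had a ratio of 1.46 (1.32 to 1.62) and Tgm2 of 1.82 (1.62 to 2.05). Epithelial markers (6 genes) summed to 6.28 CPM with Ad-Cre (161 reads) and 0.378 CPM with Ad-GFP (11 reads) here. Most of the Ad-Cre reads were of Krt7 (82, against 1 with Ad-GFP) and Krt8 (52 against 5). Epcam went the other way, with 0 and 3 reads. The part of these markers was not tested.

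In tail tip fibroblasts 0 of the 8 genes differed at least 2-fold, against 3.10% of all tested genes (1.53% higher and 1.58% lower). Cyp26b1 had a ratio of 1.01 (0.942 to 1.08) and Aldh1a3 of 1.02 (0.957 to 1.09) at 1678 to 1809 reads in each library. Aldh1a1 was at 1.47 (1.09 to 2.01), Crabp1 at 1.16 (1.12 to 1.21) and Dhrs3 at 0.826 (0.765 to 0.891). The higher Cyp26b1 level with Ad-Cre thus appeared in the cardiac and lung pairs and not in the tail tip pair, a difference between origins that 1 library per group cannot test.

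**Figure D5:**
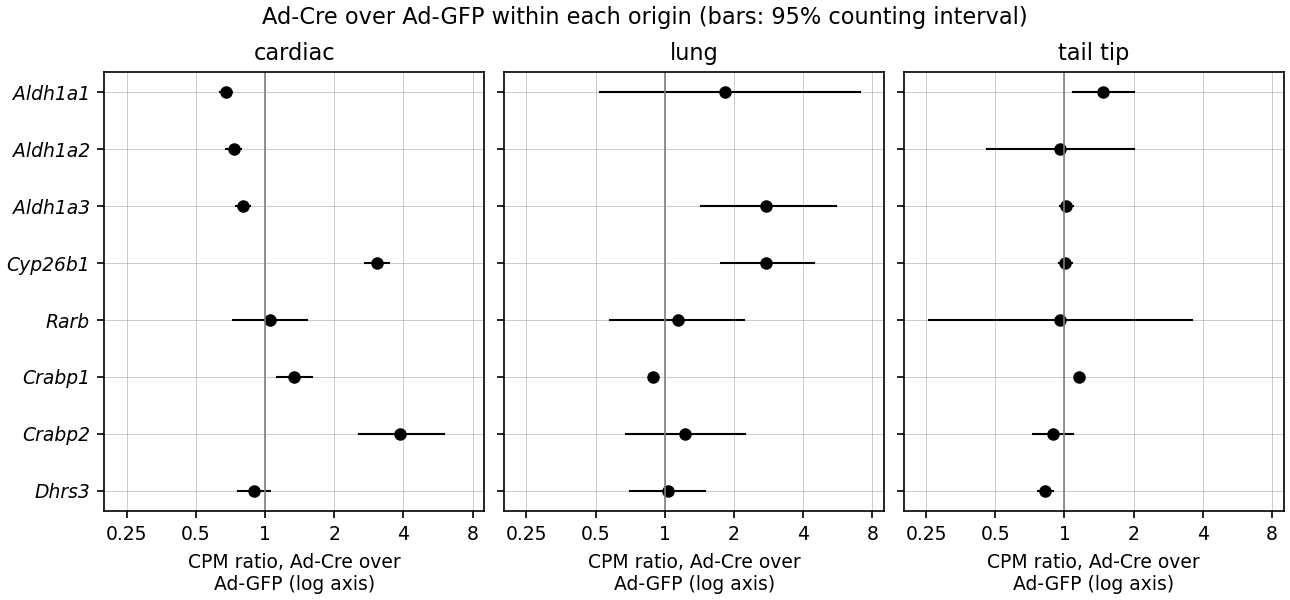
CPM ratio of Ad-Cre over Ad-GFP within each origin (log axis) for the 8 tested genes, with points for the ratio and lines for the exact 95% counting interval; Aldh1a2 has no point in lung, where the Ad-GFP library had 0 reads. Cyp26b1 stands at 3.06 in cardiac, 2.76 in lung and 1.01 in tail tip fibroblasts, and the 3 Aldh1a genes stand left of 1 in the cardiac panel.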

How the data were processed

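The authors deposited raw whole-number read counts per Ensembl gene. Build mm39 and STAR 2.0.7 appear in the submitters' processing notes, their roles unstated. The counting tool, the annotation release and whether strand was used were not given in the sources used here. Columns were matched to libraries by the column names in the labels, which cite a matrix of another title. Symbols came from a GRCm38 annotation (51884 of 57180 identifiers), as did the gene lengths of all 9 genes. The labels give the same batch entry, 48h, to every library.

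Genes were tested with edgeR 4.0.16 (R 4.3.3): filterByExpr (minimum count 10, 18143 genes), TMM factors of 0.964 to 1.03, and robust quasi-likelihood F-tests in 1 additive model of origin and virus with 2 residual degrees of freedom. P-values are two-sided, adjusted by Benjamini-Hochberg over all tested genes, with a threshold of 0.05; the SE was derived from the F value. The fit was tested on simulated data with the same spread for every gene and large changes only in genes above a read minimum. That run says nothing of genes with few reads or of pairs that vary more than others. Log2 ratios within an origin have a prior count of 2, and ratios of reads have exact conditional binomial 95% intervals. Without molecular identifiers, intervals and floors cover counting error only.

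The 9 genes and the lists were chosen with earlier results of these data known. All 9 are named; of a pathway list, genes past the threshold with the largest fold changes and a mean of at least 1 CPM (within an origin, the largest ratios with at least 50 reads), and the nearest patterns. Rdh10, Cyp26a1 and Cyp26c1 between origins and the markers Upk1b, Tcf21, Lrrn4, Msln, Col1a1, Col1a2 and Vim were chosen after their values were seen, and some genes taken by the rule are not reported here. The alternatives comprised DESeq2 1.42.0, its size factors, library totals, no filter, no virus term, a prior count of 0.5, the longest transcript and leaving out each library. Leaving out pairs was added after seeing the data.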

Additional observations from a re-analysis of the deposited data

Results flagged for a closer look

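A total of 3 genes had Ad-Cre over Ad-GFP ratios on opposite sides of 1 in different origins, with counting intervals that did not include 1. With 1 library per group this difference between origins was not tested. Aldh1a1 had a ratio of 0.676 in cardiac and 1.47 in tail tip fibroblasts. For Aldh1a3 the ratio was 0.802 in cardiac and 2.76 in lung fibroblasts, the second from 34 and 14 reads. Crabp1 had 1.34 in cardiac, 0.89 in lung and 1.16 in tail tip fibroblasts.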

How the results depend on the processing

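Of 392 member log2 fold changes under the alternatives, 349 kept their direction and their side of the threshold, 13 newly passed, 14 no longer passed and 16 turned in direction. The 81 log2 ratios within an origin stayed within their error. Levels per length depended on the length used for all but Aldh1a2 and Crabp1, whose 2 lengths are the same. With the longest transcript Aldh1a1 was at 22.7 and 33.6 CPM per kilobase in cardiac Ad-Cre and Ad-GFP, against 10.8 and 16 with merged exons. In the Ad-Cre comparison 141 genes passed without a low-count filter, 4 with DESeq2, 3 without the cardiac pair and 36 without the tail tip pair, against 0; among the 9 genes 1, Cyp26b1, passed without the filter and without the tail tip pair. Leaving out 1 library gave 11 to 109 genes and 0 to 1 of the 9. In the origin comparisons it gave 5038 to 10065 genes in cardiac over lung, 3110 to 9208 in cardiac over tail tip and 5995 to 12560 in lung over tail tip, and 5 to 9 of the 9 genes in the last. A lone library was then assumed to vary like the others. With a prior count of 0.5, 965 genes differed at least 2-fold in tail tip, against 563. The values that turned had not passed in any fit. Aldh1a3 in cardiac over tail tip ran between -0.39 and 0.26. For Ad-Cre, Aldh1a1 ran between -0.33 and 0.60 when 1 library was left out, and was 0.03 with library totals, 0.05 with DESeq2 and 0.62 without the cardiac pair. Aldh1a2 ran between -0.39 and 0.06, with 0.11 without the cardiac pair, and Crabp2 between -0.02 and 1.16, with -0.01 without it. Aldh1a3 ran between -0.15 and 0.28, with -0.14 without the lung pair. The cause was not tested. No paired analysis by replicate number was possible because each group has 1 library; the virus test already compares the viruses within each origin, with origin as a term. Depth limits Stra6, Rarb and the Aldh1a genes in lung.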
